A study of Mus musculus with 2 samples.

Results

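The genes described here are 10 germline genes, Dazl, Ddx4, Mael, Sycp1, Sycp3, Tex101, Asz1, Taf7l, Stk31 and Stra8. They were chosen by symbol, as genes known to be repressed by DNA methylation outside the germline, and all 10 are among the 18888 genes of the deposited table. RNA-seq was performed on PB and PB-TERRA 46C mouse embryonic stem cells (mESCs), 1 library each. The 46C line carries a green fluorescent reporter in the Sox1 locus, and both libraries came from cells between passages 21 and 24 grown on gelatin in conventional mESC medium. PB cells carry the empty PiggyBac vector. PB-TERRA cells carry the same vector with telomeric repeats, from which polyadenylated TERRA, the noncoding RNA of telomeres, is expressed. The labels do not say whether either culture was a clone or a pool, and TERRA has no row in the table, so its overexpression was not checked in these data. The paper reports that recombinant TERRA was expressed, from PCR with primers specific for the vector. DNA methylation itself was not measured.

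In the mouse, a set of genes needed only in germ cells is kept off in other cells mainly by methylation of CpG-rich promoters. In mESCs the polycomb complex PRC1.6 and the histone H3 lysine 9 methyltransferases also act on such promoters. Sequence-specific parts of PRC1.6 include the Mga-Max dimer, which binds the E-box, and E2f6 with its partner Tfdp1, which binds E2F sites. Many of these genes are active in primordial germ cells once their methylation is erased, and they serve meiosis, the silencing of transposons by piRNAs, or translation in germ cells.

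The promoters were examined for CpG content and for E-boxes, which the choice of genes did not use. The first was no higher than in expressed genes at large, and the E-box was found in most but not all of the 10 genes. RefSeq windows of 300 bases (250 before and 50 after the start site, GRCm38.p6) were matched by symbol for all 10 genes, with 11 windows because Stk31 has 2. The windows held a median of 21 CpG dinucleotides, between 10 in Stra8 and 38 in Ddx4. Over the 17697 windows of 14165 genes matched to the table the median was 17. It was 21 over windows of genes with at least 1 FPKM in 1 library or both, which 8 of the 10 genes reach, and 7 over windows of the other genes of the table. Stra8, Sycp3 with 15, and Asz1 and Taf7l with 17 each were at or below the median of the table. The E-box CACGTG, which reads the same on both strands, was found in 6 of 10 genes, Ddx4, Mael, Sycp1, Sycp3, Taf7l and Stk31. It was found in 10.6% of the matched genes of the table, and in 12.1% of those with a window of at least 10 CpG. These are descriptions of the letters in the window and not of binding.

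The E-boxes are shown because 6 of the 10 promoters hold them. Each line gives 30 bases on the strand of the gene, 5′ to 3′, with the E-box in capitals. They lie, in the order shown, at chr13:112652322-112652351 (minus strand), chr1:166238950-166238979 (minus), chr3:102936177-102936206 (minus), chr10:88459511-88459540 (plus), chr10:88459532-88459561 (plus), chrX:134476522-134476551 (minus) and chr6:49395472-49395501 (plus).
Ddx4, E-box 29 bases before the start site: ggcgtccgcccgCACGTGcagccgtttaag
Mael, 223 bases before: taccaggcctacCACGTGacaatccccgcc
Sycp1, 94 bases before: tagagaacccggCACGTGggaagggaaatc
Sycp3, 64 bases before: gccgttggctccCACGTGagaacgggcatg
Sycp3, 43 bases before: acgggcatggagCACGTGctaggaggcggg
Taf7l, 49 bases before: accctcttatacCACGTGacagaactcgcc
Stk31, 55 bases before the first of its start sites: aggccggccaccCACGTGaccagggctgcg

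In 4 genes, Mael, Sycp3, Taf7l and Stk31, the E-box was flanked alike and read CCACGTGA, letters searched for after the sites were seen, which were present on either strand in 2.12% of the windows of the table. The E2F-like letters GCGGGA, on either strand, were found in 4 of 10 genes, Ddx4, Mael, Sycp1 and Sycp3, against 35.1% of the matched genes. All of these also held an E-box, a combination present in 4.45% of the matched genes, in 15.4% of the 13 other germline genes with methylated promoters that have a window, and in 16.0% of the 25 meiotic chromosome genes. Dazl, Tex101, Asz1 and Stra8 held neither.

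The upstream stretches of Stk31, whose ratio between the libraries was farthest from 1, and of Dazl, which has no E-box in its window, are given with each CpG in capitals. Both are written on the strand of the gene and run from 250 to 21 bases before the start site, and no annotated exon overlaps them. Stk31 lies at chr6:49395289-49395518 (plus strand) and Dazl at chr17:50293641-50293870 (minus strand) in GRCm38.p6. Both stretches held 19 CpG.
Stk31: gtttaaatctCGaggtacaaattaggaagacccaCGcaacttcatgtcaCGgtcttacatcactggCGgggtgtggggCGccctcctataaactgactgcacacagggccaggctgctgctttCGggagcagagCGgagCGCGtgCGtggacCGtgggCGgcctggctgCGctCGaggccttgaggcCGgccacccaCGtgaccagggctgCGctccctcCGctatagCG
Dazl: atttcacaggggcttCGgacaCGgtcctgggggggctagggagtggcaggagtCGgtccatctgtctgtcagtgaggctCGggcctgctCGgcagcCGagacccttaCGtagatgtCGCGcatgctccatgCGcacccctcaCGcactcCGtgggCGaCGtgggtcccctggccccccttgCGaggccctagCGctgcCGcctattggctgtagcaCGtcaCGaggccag

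**Figure D1:**
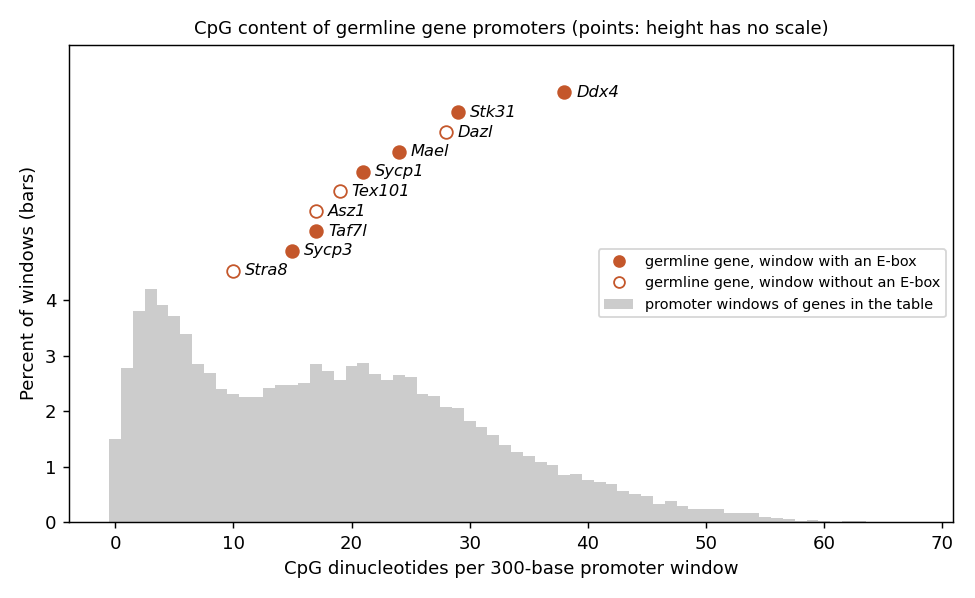
CpG dinucleotides per 300-base promoter window (horizontal axis) for all windows of genes in the table (grey bars, percent of windows) and for the 10 germline genes (points, whose height has no scale, with the first window of Stk31). Filled points are the 6 genes with an E-box in the window, and the genes run from Stra8 with 10 CpG to Ddx4 with 38.

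To see whether these genes were silent in the PB control, their expression was first examined in each library. Levels are FPKM, read fragments scaled for gene length and library size, so genes can be compared with each other. Where a pair of values is given without names, the PB library comes first. Not all of the 10 genes were silent. The most abundant was Sycp3, which builds the axial elements of meiotic chromosomes, with 23.12 FPKM in PB and 20.97 in PB-TERRA. These levels exceeded those of 80.5% and 79.1% of the genes in the table, and were 3.1% and 2.7% of the level of the pluripotency factor Pou5f1. Ddx4, the germ cell RNA helicase also known as Vasa, had 8.35 and 8.43 FPKM. Mael, a factor of the piRNA pathway, had 5.64 and 6.14 FPKM. These 3 genes were above the median of the table in both libraries (3.71 FPKM in PB and 3.67 in PB-TERRA), and the other 7 were below it in both. The name of silenced genes therefore does not describe Ddx4 and Mael here. The same holds for Sycp3 as listed, subject to its overlap with another gene, described below. In bulk RNA, fewer expressing cells and less RNA per cell cannot be told apart.

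Dazl, an RNA-binding regulator of translation in germ cells, had 1.87 and 1.74 FPKM. Sycp1, the transverse filament of the synaptonemal complex, had 1.78 and 1.93 FPKM. Taf7l, an X-linked germ cell relative of the TFIID subunit Taf7, had 1.26 and 1.67 FPKM. Stra8, the retinoic acid-induced regulator of meiotic entry, had 0.87 and 1.11 FPKM. Stk31, a Tudor domain protein with a kinase-like domain, had 0.62 and 1.14 FPKM. Tex101, a germ cell surface glycoprotein, had 0.56 and 0.85 FPKM. Asz1, a scaffold of the germ granule in the piRNA pathway, was listed at 0.01 FPKM in PB, the lowest value the table holds, and at 0.02 in PB-TERRA, which amounts to 0 reads and 1 read.

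Read numbers are not in the table and are estimates. They were worked out from the FPKM, the gene length and the value of 1 read in each library, and summed to 24802851 over the genes of the PB library and 24924298 over those of the PB-TERRA library. Intervals are exact binomial (Clopper-Pearson) 95% intervals and cover counting error only. Within each library, the order Sycp3, Ddx4, Mael held beyond counting error at every step. Sycp3 was 2.77 times Ddx4 in PB (95% interval 2.46 to 3.11) and 2.49 times in PB-TERRA (2.21 to 2.80). Mael was 3.02 times the next gene, Dazl, in PB (2.41 to 3.80), and 3.18 times the next gene, Sycp1, in PB-TERRA (2.58 to 3.92). Dazl and Sycp1 did not differ beyond counting error in either library, nor did Taf7l and Stra8 in PB, Stra8 and Stk31 in either, or Stk31 and Tex101 in PB. Tex101 stood above Asz1 in both.

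The value of Sycp3 carries a reservation, which extends to its rank in the table and to its ratio over Ddx4. In GENCODE M21 (GRCm38) 52.2% of its exonic bases lie also in exons of Chpt1, a gene of phospholipid synthesis on the opposite strand. The library kit is named without a statement on strand, so reads of the 2 genes cannot be told apart there. Chpt1 had 3.69 and 3.94 FPKM, and its log2 ratio was 0.09. How shared reads were assigned is not known, so this level sets no bound on the part of Chpt1 in the value of Sycp3. Of the 50-base stretches of each transcript set, 43.0% in Sycp3 and 5.47% in Sycp1 occurred also in transcripts of other genes, and 0% in the remaining 8.

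**Figure D2:**
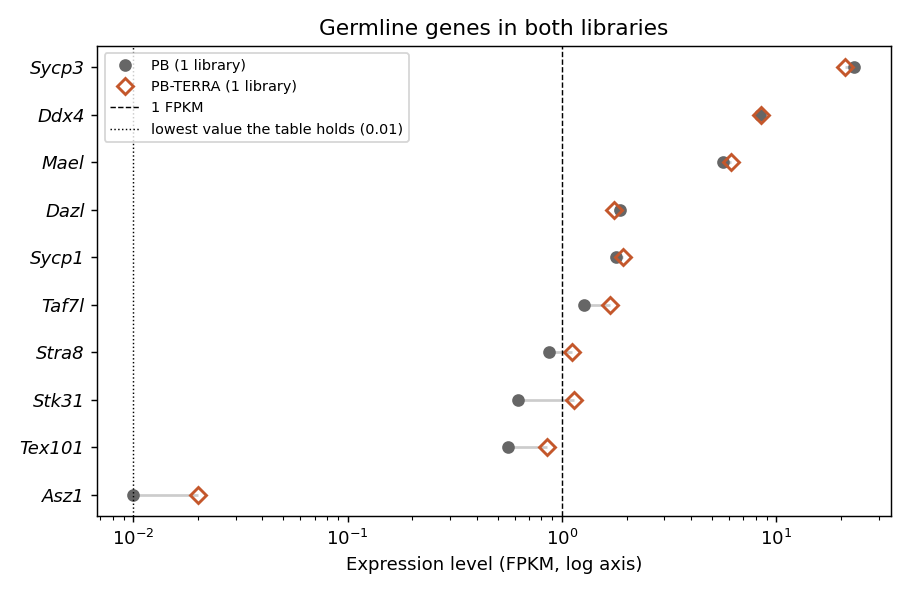
FPKM of the 10 germline genes (log axis) in PB (grey circles) and PB-TERRA (open orange diamonds), 1 library each, with the 1 FPKM filter as a dashed line and the lowest value of the table, 0.01, as a dotted line. The genes span from Sycp3 above 20 FPKM to Asz1 at the lowest value of the table, and the symbols of both libraries nearly coincide for Ddx4.

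The libraries were then compared. Among the 9 genes with a ratio, that of Stk31 was farthest from 1, and those of the 3 abundant genes were close to it. The difference in FPKM, PB-TERRA minus PB, was largest for Sycp3 at -2.15, against 0.52 for Stk31. Since each condition has 1 library, no replicate spread can be estimated. Every difference below compares 2 libraries, and no test between conditions was made. Stk31 had 48 and 89 reads, which is 1.84 times as many after scaling for depth (95% interval 1.28 to 2.68, log2 ratio of the reads 0.88). On the scale of FPKM + 0.1 its log2 ratio was 0.78, reached or exceeded by 0.864% of the 12263 genes with at least 1 FPKM in 1 library or both. Counted in either direction, 1.72% of these genes lay at least as far from 0. Among the 1471 of these genes with a mean between 0.5 and 2 FPKM, where counting error is wide, 4.83% reached 0.78, counting higher values only. Stk31 and Stra8 passed this filter only through the PB-TERRA library, so that the genes past the filter were partly selected for being higher there.

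For the other low genes the intervals were wide and included 0. Taf7l had 57 and 76 reads, a log2 ratio of the reads of 0.41 (-0.11 to 0.93). Stra8 had 29 and 37 reads, a log2 ratio of 0.34 (-0.40 to 1.10). Tex101 had 13 and 20 reads, a log2 ratio of 0.61 (-0.46 to 1.74). All 3 were higher in PB-TERRA, by differences that were not detectable at this depth gene by gene. For Asz1, with 0 and 1 reads, no fold is given, because both libraries are under the 3 reads that a count of 0 allows.

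For the abundant genes the depth permitted narrower limits. Ddx4 had 567 and 575 reads, and its log2 ratio of 0.01 had an interval from -0.16 to 0.18, that is between 0.897 and 1.13 times the PB level. Sycp3 had 583 and 532 reads, with a log2 ratio of -0.14 (-0.31 to 0.03), between 0.806 and 1.02 times. Mael had 200 and 219 reads (log2 ratio 0.12, -0.16 to 0.41). Sycp1 had 147 and 160 reads (0.11, -0.22 to 0.45), and Dazl 130 and 122 reads (-0.10, -0.47 to 0.27). A change of 2-fold in either direction therefore lay outside the counting interval of each of these 5 genes, all with at least 100 reads in both libraries.

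**Figure D3:**
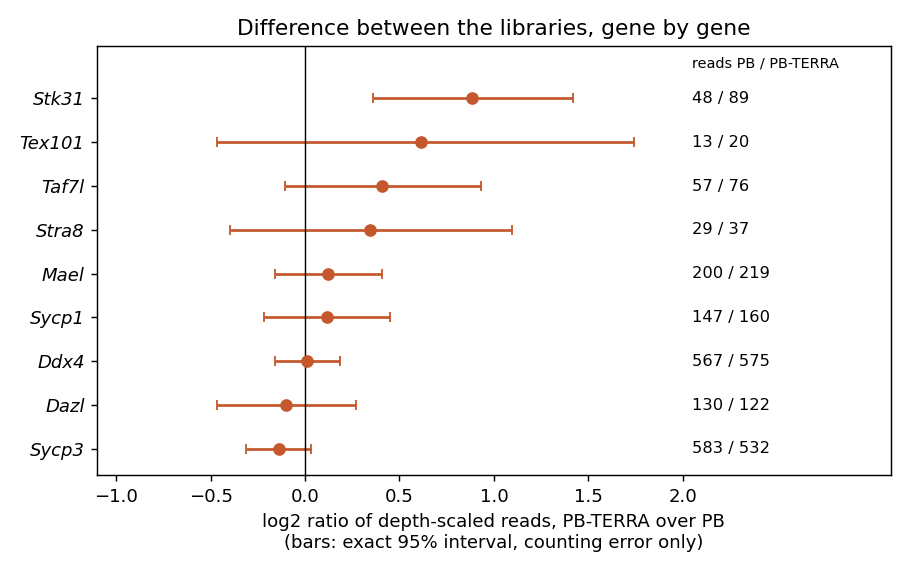
Log2 ratio of the depth-scaled reads, PB-TERRA over PB, with exact 95% intervals for counting error (bars) and the reads of each library at the right. Asz1, with 0 and 1 reads, is left out. The interval of Stk31 lies above 0 and those of the other 8 genes include it.

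Counted over all 10 genes, 8 had a higher value in PB-TERRA, Asz1 by a single read, and 2 (Sycp3 and Dazl) a lower value. Past the filter were 8 genes, 6 higher and 2 lower, where 48.6% of all genes past the filter were higher. Stk31 and Stra8, both among the higher, passed only through PB-TERRA, so that this count and the median lean towards higher values. The median log2 ratio of FPKM + 0.1 of the 8 genes was 0.12, against -0.0044 over all genes past the filter. Of single genes past the filter 90% lay between -0.35 and 0.33, a range that is no measure for a median. None of the 8 reached an absolute log2 ratio of 1 (0 genes), which 0.913% of all genes past the filter reached. The interval of the reads lay above 0 for 1 of the 8 genes (18.2% of all genes past the filter) and below 0 for 0 of them (17.6%). The members are not replicates, and these counts were not tested.

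Summed over the 10 genes there were 1774 and 1831 reads, with a log2 ratio of 0.04 (-0.06 to 0.13). Sycp3 and Ddx4 held 64.8% of these reads in PB and 60.5% in PB-TERRA. Without Ddx4, which has the most reads over both libraries, the log2 ratio of the sum was 0.05 (-0.07 to 0.17). After the values were seen, the sum was also taken without Sycp3, whose exons overlap those of Chpt1 and whose ratio is the lowest. It was then 1191 and 1299 reads (0.12, 0.0031 to 0.23), and without Sycp3 and Ddx4 it was 624 and 724 reads (0.21, 0.05 to 0.36). Without Stk31 the sum of the other 9 genes had a log2 ratio of 0.01 (-0.09 to 0.10). By role, the synaptonemal complex genes Sycp1 and Sycp3 together had 730 and 692 reads (-0.08, -0.24 to 0.07). The factors of RNA and piRNA biology, Dazl, Ddx4, Mael, Asz1 and Stk31, had 945 and 1006 reads (0.08, -0.05 to 0.21). The remaining Stra8, Taf7l and Tex101, which share no role, had 99 and 133 reads (0.42, 0.03 to 0.81). The intervals lay above 0 for the sums without Sycp3, alone or with Ddx4, and for Stra8, Taf7l and Tex101. Those of the other sums given included 0. Leaving out the gene with the lowest ratio raises a sum by construction, and both sums without Sycp3 still hold Stk31. No conclusion is drawn from these intervals.

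**Figure D4:**
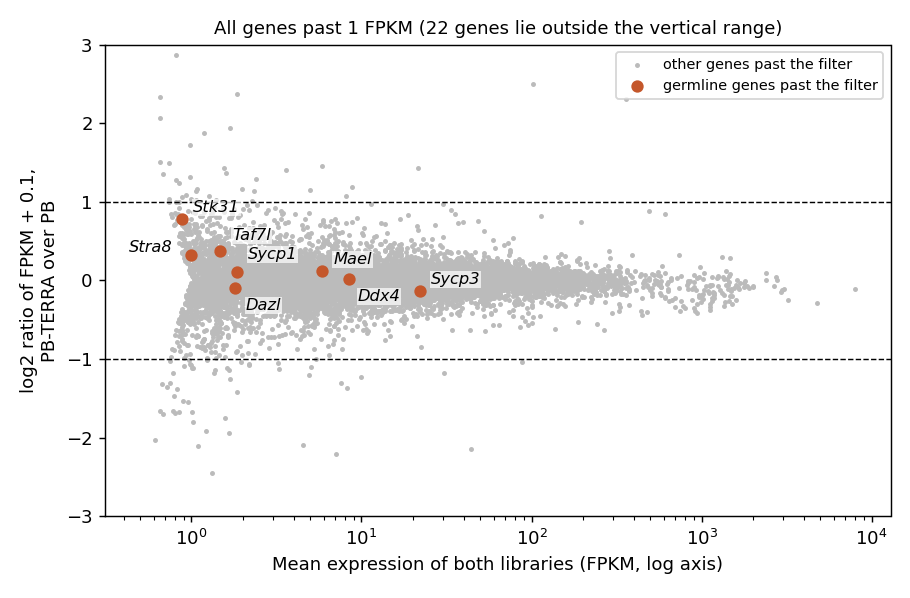
Log2 ratio of FPKM + 0.1, PB-TERRA over PB, against the mean FPKM of both libraries (log axis) for all 12263 genes past the filter (grey) and the 8 germline genes past it (orange), with dashed lines at an absolute log2 ratio of 1 and 22 genes outside the vertical range. Stk31 and Stra8 sit at the low end of expression, where the grey points spread widest, and Mael, Ddx4 and Sycp3 sit near 0.

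Other germline genes were then examined in the same way. A list of 16 further germline genes whose promoters are methylated in somatic cells had 12 past the filter, 6 higher and 6 lower, with a median log2 ratio of 0.01 that turned negative with the length trend removed and with each other filter tried. Hormad1, which marks unsynapsed meiotic axes, had 0.88 and 1.55 FPKM (32 and 56 reads, log2 ratio of the reads 0.80, 0.15 to 1.47). Tuba3a, a testis alpha-tubulin with a near-identical copy, had 5.89 and 4.30 FPKM (log2 ratio of the reads -0.45, -0.76 to -0.14). Rpl10l, a retrocopy of Rpl10, had 21.19 and 18.50 FPKM, and Syce1, of the synaptonemal central element, 6.77 and 7.17 FPKM. The E-box was found in 38.5% of the 13 genes of this list with a promoter window, and in 37.5% of the 16 piRNA pathway genes with one. Of the 12 genes past the filter the interval lay below 0 for 4 and above 0 for 1, against 17.6% and 18.2% of all genes, and no more is read from these counts. Hormad1, the gene above 0, passed the filter only through PB-TERRA, and Smc1b, among those below 0 with 1.04 and 0.76 FPKM, only through PB.

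Meiotic chromosome genes numbered 27 in the table and 18 past the filter, 11 higher and 7 lower (median log2 ratio 0.06). Syce2, of the synaptonemal central element, was the most abundant with 32.04 and 31.49 FPKM, above Sycp3, followed by the recombination cofactor Psmc3ip with 16.33 and 15.59. Spata22, a partner of Meiob in meiotic recombination, had 1.04 and 0.48 FPKM (30 and 14 reads, log2 ratio of the reads -1.11, -2.14 to -0.15), and passed the filter only through PB. Of the 20 piRNA pathway genes 13 passed the filter, 5 higher and 8 lower (median -0.04). Tex19.1 had 24.07 and 26.05 FPKM, the exonuclease Pnldc1 10.55 and 11.41, and Tdrd9 12 and 4 reads. On the scale of FPKM + 0.1, where Spata22 is at -0.97, Gtsf1 was the only gene of these germline lists past the filter and beyond an absolute log2 ratio of 1, at 1.04. It had 0.45 and 1.03 FPKM, and so passed the filter only through PB-TERRA, from 7 and 16 reads (interval of the reads -0.18 to 2.71). Of 10 X-linked germline genes in the table, Taf7l among them, 5 passed the filter, 3 higher and 2 lower (median 0.14, which turned negative with the looser filters and with none). Rhox5 had 17.06 and 19.09 FPKM, Rhox6 2.42 and 1.88, and Rhox9 2.06 and 1.23, and the Rhox genes are a family of similar copies.

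Genes of primordial germ cell specification were lower in PB-TERRA more often than higher. Of 9 past the filter 7 were lower and 2 higher (median -0.24), and the interval of the reads lay below 0 for 5 and above 0 for 1, where the shares over all genes were 48.6% higher, 17.6% below 0 and 18.2% above 0. Ifitm1, a surface protein of early germ cells, had 221.04 and 153.37 FPKM (log2 ratio -0.53). Its neighbour in the same family, Ifitm3, had 248.50 and 321.72 FPKM (0.37). Dppa3, a factor that protects methylation in the zygote, had 5.79 and 7.53 FPKM (0.37, with an interval of the reads from -0.01 to 0.77). Whether the difference between these lists exceeds that between cultures was not tested.

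Genes of DNA methylation and demethylation and of other repressor complexes were examined next. All 11 genes of the DNA methylation machinery passed the filter, 6 higher and 5 lower (median 0.03), and the interval of the reads lay above 0 for 4 and below 0 for 4 (18.2% and 17.6% of all genes). Tet1, which oxidises methylated cytosine, had 60.90 and 71.04 FPKM (log2 ratio 0.22), and the de novo methyltransferase Dnmt3b 131.59 and 117.26 FPKM (-0.17). The other de novo methyltransferase, Dnmt3a, went the other way with 18.18 and 20.07 FPKM (0.14), and Dnmt1 had 68.78 and 68.46 FPKM (-0.01). Dnmt3l, the cofactor of de novo methylation, had 196.62 and 185.87 FPKM (-0.08), and the glycosylase Tdg 3.86 and 3.19 FPKM (-0.27). Of the 15 PRC1.6 genes 11 were higher and 4 lower (median 0.06), with the interval above 0 for 6 and below 0 for 0, beside the same shares and the 48.6% of all genes that were higher. The interval narrows with the reads of a gene, and many of these genes are abundant. The heterochromatin protein Cbx3 had 113.83 and 130.16 FPKM (0.19), Tfdp1 92.07 and 93.92 (0.03), and Yaf2 5.24 and 4.71 (-0.15). Of the 7 genes of H3K9 methylation and histone demethylation 4 were higher and 3 lower (median 0.01, or -0.04 with the length trend removed). Trim28, the corepressor of KRAB zinc finger proteins, had 536.30 and 480.33 FPKM (-0.16), Kdm1a 87.28 and 84.55 (-0.05), and Atf7ip 27.94 and 30.25 (0.11). None of these 33 genes reached an absolute log2 ratio of 1 (0 genes), which 0.913% of all genes did, so that a count of 0 is near the background.

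**Figure D5:**
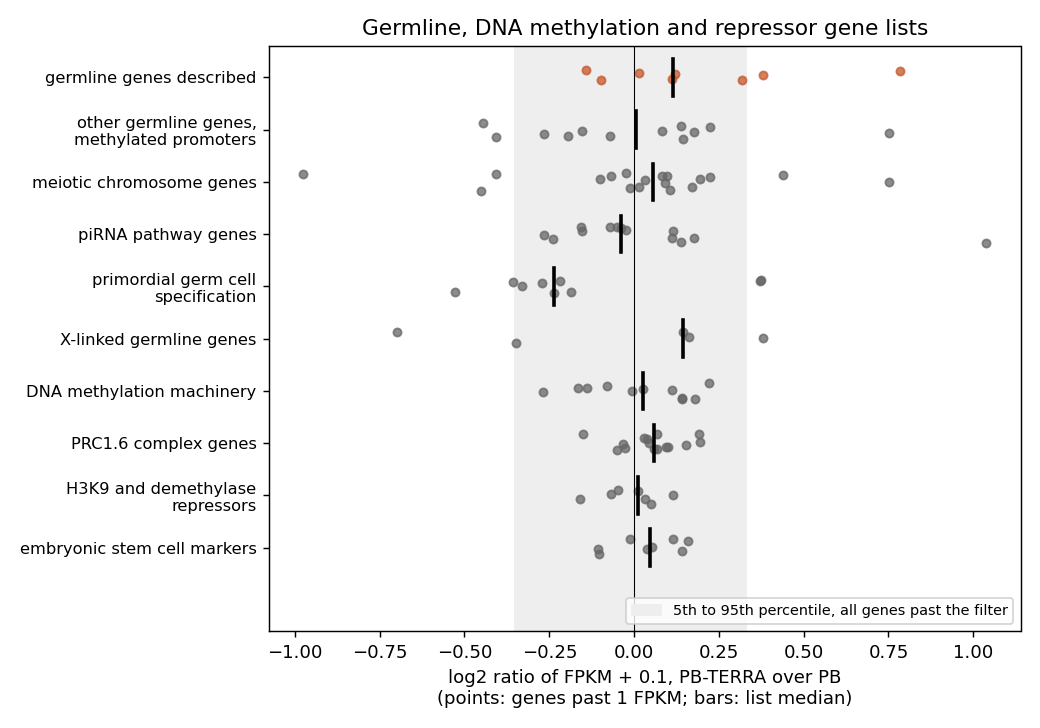
Log2 ratio of FPKM + 0.1, PB-TERRA over PB, for each gene past the filter (points) in the lists with at least 5 such genes, with list medians (black bars) and the 5th to 95th percentile of all genes past the filter (grey band). The median of the 10 germline genes' list is 0.12 and that of primordial germ cell specification -0.24. The band describes single genes and is no measure for medians.

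Markers of mESCs were abundant in both libraries, with a summed level of 1894 FPKM in PB and 1914 in PB-TERRA over 8 genes. Pou5f1 had 744.67 and 773.31 FPKM, Utf1 387.13 and 359.34, and Dppa4 74.29 and 82.97. Of 7 markers of post-meiotic male germ cells only Acr has a row in the table, with 0 and 1 reads. Of 6 oocyte markers 4 are in the table, with summed levels of 2.72 and 3.28 FPKM. Zp3 made up most of it with 2.52 and 3.0 FPKM, Gdf9 had 7 and 9 reads, and Bmp15 was listed at the lowest value of the table in PB, where reads cannot be told from 0. The 7 fibroblast markers summed to 18.8 FPKM in PB and 22.9 in PB-TERRA. Col1a1 had 7.99 and 12.14 FPKM (log2 ratio 0.60), Col3a1 0.21 and 0.47 FPKM from 28 and 64 reads, and Thy1 9.16 and 8.39 FPKM. Of the 3 markers past the filter 2 were higher and 1 lower (median 0.53). The interval of the reads lay above 0 for 2 of them, against 18.2% of all genes past the filter. The part of these markers in the difference of Stk31 was not tested.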

How the data were processed

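The authors sequenced total RNA of 46C mESCs with PB or PB-TERRA (1 library each) and deposited 1 table of 18888 genes. The submitters' processing notes name HISAT, Cufflinks and the genome build mm9, without roles or versions. The authors deposited expression values that were read as FPKM, rounded to 2 decimals with a floor of 0.01. The header names no unit. Columns with the authors' own fold changes, p-values, adjusted p-values and calls were not used.

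The value of 1 read was fitted from the steps between the FPKM values of genes under 1000 bases. The best fit took 115 bases off the gene length. Cufflinks need not assign whole reads to genes, so whether it made these values is not known, and the reads and their intervals rest on the fit. Of the short genes whose rounding allowed a check, 774 in PB and 803 in PB-TERRA, 76.4% and 81.2% lay within 0.15 of a whole read, where 30% would by chance. Reads were rounded to whole numbers.

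Log2 ratios are PB-TERRA over PB of FPKM + 0.1, which understates differences of low genes, with a filter of 1 FPKM in 1 library or both. Ratios of reads have exact binomial 95% intervals. A log2 ratio past 1 in either direction was counted, with no test. The fit, the reads and the intervals were tested on simulated data.

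The members and lists were chosen with earlier results of these data known. Named are all 10 members, and from each list the 2 genes with the highest mean FPKM and, among genes with at least 10 reads in 1 library, those with the highest and the lowest log2 ratio. Bmp15, Smc1b, Chpt1, Dnmt3a and Dnmt1 were named after their values were seen. Promoters and transcripts came from RefSeq (GRCm38.p6) and GENCODE M21, which need not be the authors' annotation. The tools were scipy 1.17.1, numpy 2.4.6 and pandas 2.3.3 in Python 3.11.15, with matplotlib 3.10.9 for the plots.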

Additional observations from a re-analysis of the deposited data

How the results depend on the processing

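With 1 library per condition no sample could be left out, and no replicate spread enters any value. No paired analysis was possible because each condition has 1 library. Each of the 9 genes other than Asz1 kept its sign under pseudocounts of 0.01, 0.5 and 1, under centring, under median-of-ratios scaling and with the length trend removed, as it did for the reads without a pseudocount. The log2 ratio of Stk31 lay between 0.40 and 0.88, the lowest with a pseudocount of 1. The median of the genes past the filter lay between 0.01 and 0.13, the lowest with a mean of at least 5 FPKM, which only 3 of the 10 genes reach. Depth limits Tex101, Stra8 and Asz1 most.

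The number of genes in the table past an absolute log2 ratio of 1 was 112, and it depended on the filter and the pseudocount. It was 513 of 18888 genes with no filter, and 206 of 13448 with at least 0.5 FPKM in 1 library. It was 215 of 14896 with at least 10 reads in 1 library, and 17 of 8653 with a mean of at least 5 FPKM. Of the 12263 genes past the main filter it was 68 with a pseudocount of 0.5 and 45 with a pseudocount of 1. No member was past it under any of these settings (0 genes), which for 10 genes or fewer is near the background. The log2 ratio of the summed reads was 0.04. It was 0.05 without Ddx4, the gene with most reads (-0.07 to 0.17), and, in choices made after seeing the data, 0.12 without Sycp3 and 0.21 without Sycp3 and Ddx4. The median of the fibroblast markers was 0.53 past the filter and 0.17 with no filter.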

Other observations

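The table also lists gene ontology process terms, and 6 of the 10 germline genes, Dazl, Ddx4, Sycp3, Asz1, Taf7l and Stra8, carry male gamete generation. Of the 252 genes with this term 161 passed the filter, of which 77 had a higher and 84 a lower value in PB-TERRA, with a median log2 ratio of -0.0044. The term synapsis, carried by Sycp1 and Sycp3, had 16 genes past the filter, 9 higher and 7 lower (median 0.03). Meiosis I, carried by Ddx4 and Stra8, had 13 higher and 13 lower (median -0.0013). Meiotic nuclear division, carried by Dazl and Asz1, had 4 higher and 13 lower (median -0.08). Germ cell development, carried by Taf7l and Stra8, had 27 higher and 19 lower (median 0.06). The term spermatogenesis, which none of the 10 carries (0 genes), had 19 higher and 20 lower among 39 past the filter (median -0.01). No gene with any of these 6 terms reached an absolute log2 ratio of 1 past the filter (0 genes). Over all genes past the filter 0.913% reached it and 48.6% were higher, so that a count of 0 is near the background.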
